A study of Mus musculus with 22 samples.

Results

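Cassette exons that lie between 2 long introns were followed through 7 RNA-seq libraries of mouse embryonic stem (ES) cells. A cassette exon is an internal exon that is either spliced into the mRNA or skipped together with the introns beside it. An event here is a triplet of an upstream exon, the skipped exon and a downstream exon. Events were taken when the skipped exon had 61 to 249 nucleotides, when the introns on both sides had at least 8000 nucleotides, and when the event was listed in all 7 libraries. Of 10873 events in the series, 6143 were listed in all 7 libraries and 4703 of those had the exon length range. From these, 270 events met the intron rule. They covered 242 distinct skipped exons, because 28 exons stood in 2 events each with another neighbouring exon. They fell in 203 genes, and 39 genes held several events. The rule used lengths and listing alone and no inclusion level. The events of the same exon length range that did not meet it numbered 4433, of which 744 had 1 long intron and 3689 had none.

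The study asks how DNA methylation and HP1 proteins bear on alternative splicing. WT cells are the R1 ES line. TKO cells lack the DNA methyltransferases Dnmt1, Dnmt3a and Dnmt3b. WT cells were transfected with 90 nM of siRNA against HP1alpha, HP1beta or HP1gamma, or with 60 nM against each of them, and TKO cells with 80 nM against HP1alpha, 80 nM against HP1beta and 120 nM against HP1gamma, each for 48 h. All cells grew without feeders on gelatin in medium with leukaemia inhibitory factor. WT and TKO cells were untransfected and were sequenced on a Genome Analyzer II with single reads of 50 bases. The 5 knock-down libraries were sequenced on a HiSeq platform with read pairs of 101 bases. No transfected group without an HP1 siRNA is labelled, so in each knock-down comparison against untransfected cells the knock-down, the transfection and the sequencing platform cannot be told apart. TKO and WT without siRNA, TKO and WT with all 3 siRNAs, and the knock-downs among themselves were compared within 1 platform. Each group was deposited as 1 summary of 2 pooled biological replicates, so there was no replicate error. All tests below compare libraries, not conditions.

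In vertebrate genes most exons are short and most introns long, and the splicing machinery commonly recognises an exon as a unit through the acceptor site at its start and the donor site at its end. HP1alpha, HP1beta and HP1gamma, encoded by Cbx5, Cbx1 and Cbx3, bind methylated lysine 9 of histone H3 and are known from compact chromatin. Dnmt1 maintains DNA methylation after replication, and Dnmt3a and Dnmt3b place it anew.

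Splice sites of a few called events lay inside the RefSeq windows around annotated transcription starts (GRCm38.p6, the build called mm10), and 4 are shown so that the boundaries behind the values can be read. Capitals mark exon bases and lower case intron bases, from 5′ to 3′ on the strand of the gene. The first is the acceptor of the 123-nucleotide exon of Cnot2 (chr10:116527940-116527969, minus strand), the second the donor of the exon upstream of the 149-nucleotide exon of Dag1 (chr9:108263770-108263799, minus strand), the third the donor of the exon upstream of the 70-nucleotide exon of Pkig (chr2:163658473-163658502, plus strand) and the fourth the donor of the 244-nucleotide exon of Unk (chr11:116038764-116038793, plus strand).
Cnot2 acceptor: aaagtaatatttttgtctagGTGACAAACA
Dag1 upstream donor: CGGCGCCCTCTCACCGCTCGgtacgtgatc
Pkig upstream donor: ACGAGGCGACAAGGCGGCAGgtaagcggcg
Unk donor: CAACACCCCGATGCCTGAAGgtgaggtctc
Over all members, 6 donors and 2 acceptors fell in such windows. All 6 donors opened the intron with GT and both acceptors closed it with AG. The windows of Dag1 and Pkig are those of the genes themselves, so the upstream exon of these events is at an annotated start. The Cnot2 window is also that of the gene itself, and there it reaches the skipped exon. The window over the skipped exon of Unk is that of Gm38482. Whether transcripts that start there add inclusion reads was not tested.

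The upstream exon overlapped an annotated start window in 83 of the 262 events on chromosomes with such windows (31.7%), beside 33.9% of events with 1 long intron and 18.6% of events with none. The skipped exon had a median length of 114 nucleotides, beside 116 in the other events of that range. Its length was a multiple of 3 in 103 of 270 events (38.1%), beside 43.1% of the other events. The median upstream intron had 22225 nucleotides and the median downstream intron 16862.5, and the upstream intron was the longer one in 157 events (58.1%). Chromosome 2 held 31 of the events and chromosome X 6. The genes with most events were Cnot2, a subunit of the CCR4-NOT deadenylase, with 7 events on 5 exons, and Atrx, Dtnb, Jarid2, Pvt1 and Zfp346 were among those with 4 events each. Just inside the intron minimum stood Dnm2 with a shorter intron of 8005 nucleotides, Kifc3 with 8009 and Zfp346 with 8018. Just outside it stood Max with 7986, Tfdp1 with 7979 and an event of Bcas3 with 7956.

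Depth differed between the platforms. WT and TKO had 25941844 and 25200437 reads over all events, the knock-down libraries between 4677236 (triple knock-down in WT) and 9750348 (HP1alpha). For each targeted gene, reads of its deepest event were taken relative to all event reads of the library and divided by the same in the 2 single knock-downs of the other HP1 genes. That ratio was 0.399 for Cbx5 in the HP1alpha, 0.324 for Cbx1 in the HP1beta and 0.634 for Cbx3 in the HP1gamma knock-down. With all 3 siRNAs it was, for WT and TKO cells, 0.522 and 0.468 for Cbx5, 0.352 and 0.641 for Cbx1, and 0.71 and 0.691 for Cbx3. The 2 triple knock-downs thus differ in siRNA dose and in the reads of Cbx1 as well as in cell line, and these cannot be told apart where they are compared. Markers of ES cells were listed for 9 of 22 genes in every library and markers of differentiated cells for 2 or 3 of 21. Without the rule that all 7 libraries list the event, 749 events met the length and intron rule, of which WT listed 695, TKO 714 and the triple knock-down in WT 291. The events described here are therefore those deep enough for the shallowest library.

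The deposited inclusion level is the share of the form with the skipped exon among the 2 forms of an event. It was estimated by the authors with MISO and runs from 0 to 1. Its median over the 270 events was 0.87 in WT and 0.92 in TKO. In the knock-down libraries it was 0.775 (HP1alpha), 0.76 (HP1beta), 0.69 (HP1gamma), 0.72 (triple) and 0.755 (triple in TKO). The other events of that exon length had medians of 0.86 in WT and 0.89 in TKO, and between 0.73 and 0.77 in the knock-down libraries. The 2 untransfected libraries were the high ones in both sets, and the medians of the sets lay within 0.05 of each other in every library.

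**Figure D1:**
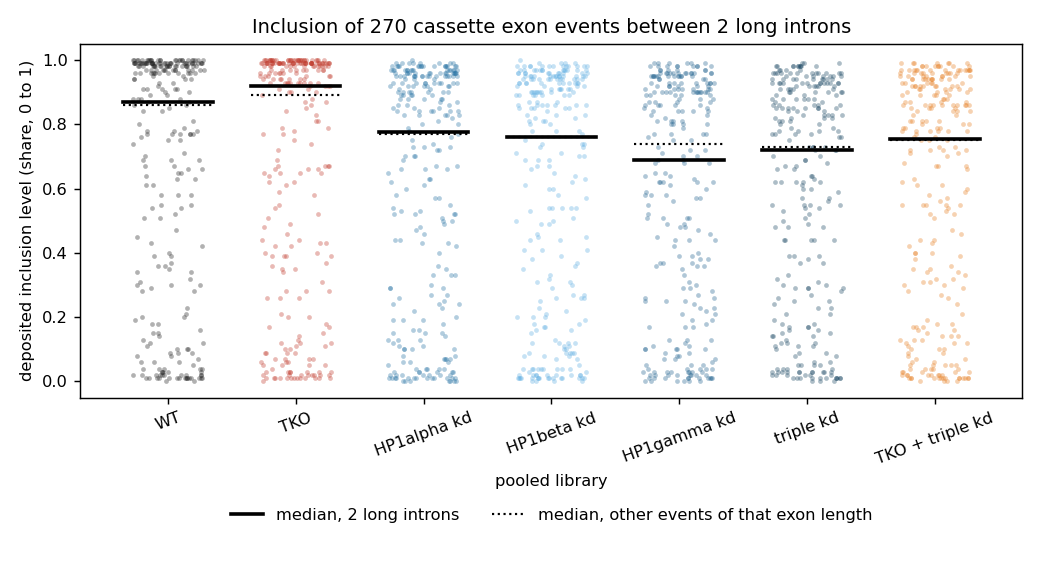
Deposited inclusion level (share, 0 to 1) of 270 events, 1 point per event, in each pooled library (kd, knock-down). The solid bar is the median of the plotted events, 0.87 in WT and 0.72 in the triple knock-down, and the dotted bar the median of the other events of the same exon length. Points gather at both ends of the scale in every library.

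The upper end of the scale thinned out in the knock-down libraries. A level of at least 0.95 was listed for 114 events in WT and 116 in TKO, but for 71, 56, 47, 36 and 47 in the HP1alpha, HP1beta, HP1gamma, triple and TKO triple knock-down. The other events of that exon length had 40.6% at or above 0.95 in WT and between 17.9% and 24.1% in the knock-down libraries, beside 42.2% and between 13.3% and 26.3% here. The lower end held its size, with 39 events at or below 0.05 in WT and between 34 and 41 in the other libraries. The number of reads that tell inclusion from skipping, called distinguishing reads here, was lower in the shallower libraries, from a median of 149.5 per event in WT and 154 in TKO to 38.5 in the triple knock-down. The deposited interval had a median width of 0.07 for WT events and of 0.21 for triple knock-down events. WT lay above all 4 knock-downs of WT cells in 161 of 270 events (59.6%) and below all 4 in 47 (17.4%), beside 58.5% and 14.1% of the other events. The part of depth and platform in this difference was not tested.

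Level was set beside the number of distinguishing reads and beside intron length. Inclusion reads are part of the distinguishing reads, so their number depends on the level itself. The correlations with reads and with intron length can therefore not be weighed against each other. Across the 270 events of a library, which share their library, the Spearman correlation of level with distinguishing reads was 0.58 in WT and between 0.47 and 0.60 in all 7 libraries. With the length of the shorter intron it lay between -0.10 and -0.08, and with that of the downstream intron between -0.19 and -0.15. In WT, the 68 events with the longest shorter introns (21083 to 217948 nucleotides) had a median level of 0.755 on a median of 85 distinguishing reads. The 68 with the shortest (8005 to 10077 nucleotides) had 0.895 on 188.5 reads. Between them stood 67 events with 10082 to 13220 nucleotides, at 0.88 on 149 reads, and 67 with 13248 to 20849, at 0.93 on 179. The median WT level thus did not fall steadily with the length of the shorter intron. Events whose downstream intron was the longer had a median WT level of 0.77 (113 events), and those whose upstream intron was the longer 0.93 (157 events).

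The 5 genes with the longest shorter intron show how thin the evidence can be at that end. Wwox, an oxidoreductase gene that spans a common fragile site, had introns of 421346 and 217948 nucleotides around a 92-nucleotide exon (chr8:115133598-115133689). Both untransfected libraries listed a level of 0.13 and the knock-downs one between 0.05 and 0.12, on 0 to 3 distinguishing reads per library, so no level can be read from it. Fut9, the fucosyltransferase that makes the stage-specific antigen of mouse ES cells, had levels of 0.96 (WT) and 0.98 (TKO), and its knock-down levels lay between 0.77 and 0.90. Rsrc1, a protein with arginine and serine repeats, was at 1.00 in both untransfected libraries, and knock-down levels lay between 0.84 and 0.90, with no skipping read in any library. Camk1d, a calmodulin-dependent kinase, was at 0.86 to 0.97, and Cux1, a homeodomain repressor, at 0.91 to 0.99. Of these 5, none was called in any comparison. Wwox had too few reads to be tested, and Rsrc1, without a skipping read, could not be called.

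At the other extreme, 8 genes were named for the lowest median level. The 170-nucleotide exon of Ctbp2, a transcriptional corepressor, was listed at 0.00 in all 7 libraries, with 8 reads for inclusion and 717 for skipping in WT, 2 and 611 in TKO. Parvb, an integrin-linked adaptor, stayed between 0.00 and 0.01 (3 and 294 reads in WT), Tbcd, a tubulin folding cofactor, between 0.00 and 0.01, and Eefsec, the elongation factor for selenocysteine, between 0.00 and 0.02. Gng2, a G protein subunit, was at 0.01 throughout. The 170-nucleotide exon of Jarid2 at chr13:44758849-44759018 was at 0.01 in WT, on 28 inclusion and 857 skipping reads, and at 0.03 in TKO, on 75 and 770. Mapkap1 had a 67-nucleotide exon at 0.00 to 0.01. None of these low exons was called, and none could be. Their levels ranged over at most 0.03, and a call needed a difference of at least 0.1. The eighth, Ak4, is described with the widest ranges.

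TKO against WT asked where loss of the DNA methyltransferases went with another inclusion level, within 1 platform. Inclusion-only and skipping-only reads were compared by Fisher's exact test (two-sided), adjusted by Benjamini-Hochberg over all tested events. A call needed an adjusted p of 0.05 or less together with levels at least 0.1 apart. At least 20 distinguishing reads were required in both libraries, which 231 of the 270 events had. Of these, 7 were higher and 2 lower in TKO, 3.90% in all. Over all 7695 events tested 4.57% were called, 3.18% higher and 1.39% lower, so the share among exons between long introns was near the background. The median difference was 0.00 in both sets. Among events with 1 long intron 3.54% were called and among those with none 5.19%.

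**Figure D2:**
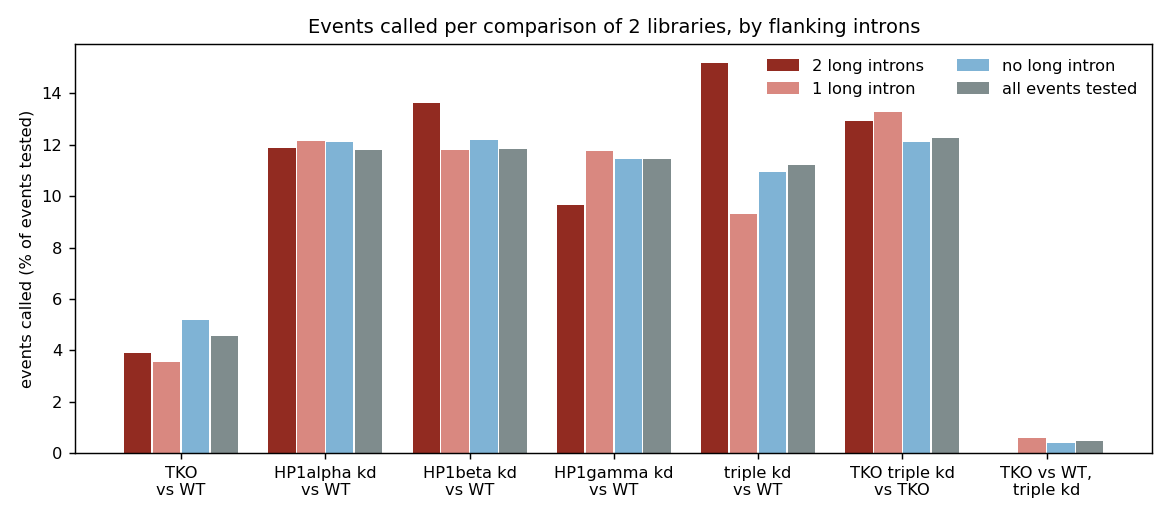
Percent of tested events that were called in each comparison of 2 libraries (kd, knock-down), for events with 2, 1 and no long introns of the same exon length, and for all events tested. Events with 2 long introns stand at 3.90% in TKO against WT and 15.2% in the triple knock-down against WT, beside 4.57% and 11.2% of all events.

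The largest increase was in Tbl1xr1, a subunit of the NCoR and SMRT corepressor complexes. Its 110-nucleotide exon (chr3:22089413-22089522) rose from 0.20 in WT to 0.90 in TKO, with reads (inclusion, skipping) of 12 and 26 in WT against 23 and 0 in TKO, at an adjusted p of 1.2e-06. The share of inclusion reads was 31.6% in WT (exact Clopper-Pearson 95% interval 17.5 to 48.7%, counting error only) and 100% in TKO (85.2 to 100%). In the knock-down libraries it stood on at most 7 distinguishing reads, at levels of 0.19 to 0.55, and could not be tested there.

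Slc39a14, a transporter of zinc and manganese, had a 98-nucleotide exon (chr14:70331269-70331366) that rose from 0.66 to 0.93, with 149 and 43 reads in WT against 85 and 0 in TKO, at an adjusted p of 1.78e-06. Tacc2, a coiled-coil protein of centrosomes and microtubules, had a 126-nucleotide exon (chr7:130663016-130663141) that rose from 0.69 to 0.96, with 137 and 34 reads in WT against 61 and 0 in TKO, at an adjusted p of 0.000603. In both genes every distinguishing read of TKO was an inclusion read.

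The exons of 3 further genes rose without reaching full inclusion. The 87-nucleotide exon of Klhdc10, a kelch protein that brings substrates to a ubiquitin ligase (chr6:30427709-30427795), rose from 0.20 to 0.46, with 31 and 63 reads in WT against 85 and 30 in TKO, at an adjusted p of 1.84e-07. In Atrx, the chromatin remodeller that deposits histone H3.3 with Daxx, the 185-nucleotide exon (chrX:105911470-105911654) rose from 0.18 to 0.44, with 48 and 31 reads in WT against 85 and 10 in TKO, at an adjusted p of 0.000299. Celf1, an RNA-binding protein that regulates splicing, had a 152-nucleotide exon (chr2:90987665-90987816) that rose from 0.30 to 0.48, with 199 and 263 reads in WT against 232 and 96 in TKO, at an adjusted p of 1.66e-12. Celf1 was the deepest of the called exons.

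The 179-nucleotide exon of Pakap, an anchor protein for protein kinase A, rose from 0.51 to 0.65 (adjusted p 0.0308). That call was lost when the test allowed for the odds ratio common to exons of similar length (adjusted p 0.343). The 2 decreases had deposited intervals that overlapped. Adam23, a membrane protein of cell adhesion, fell from 0.55 (interval 0.48 to 0.62) to 0.43 (0.35 to 0.52), adjusted p 0.046.

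**Figure D3:**
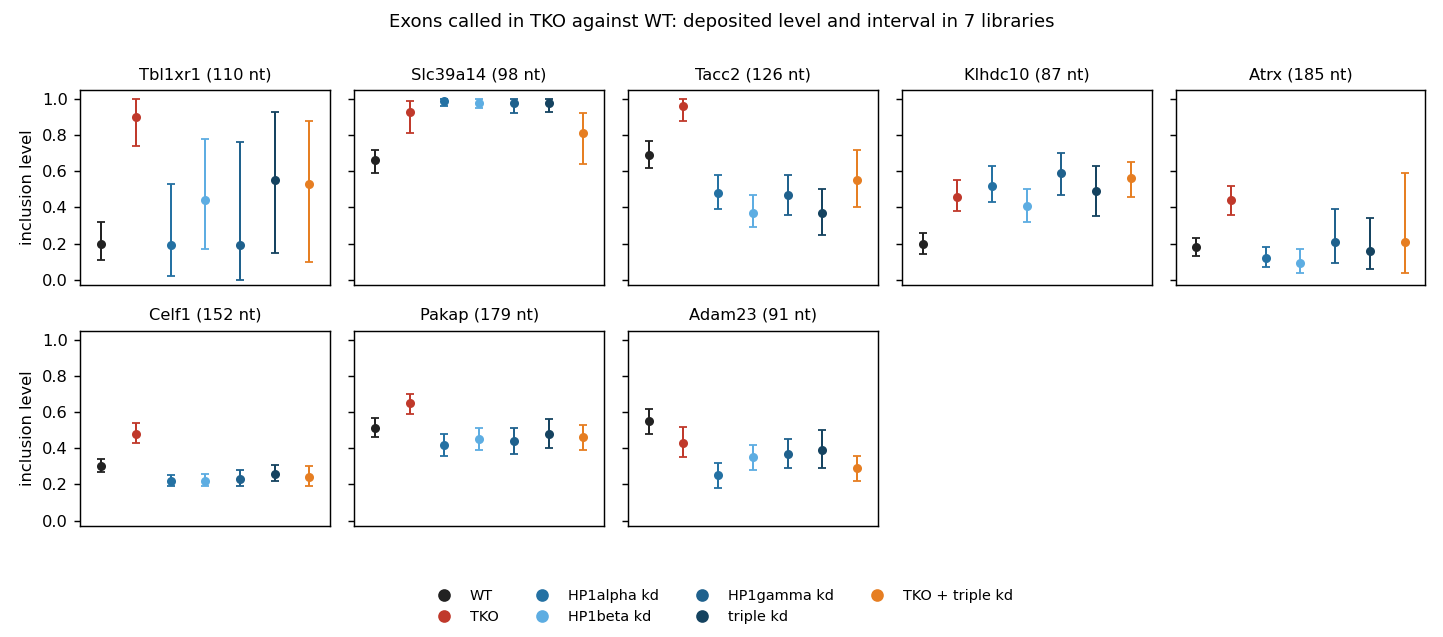
Deposited inclusion level with its deposited interval (level of the interval not stated) in the 7 libraries, for 8 of the 9 exons called in TKO against WT. Tbl1xr1 goes from 0.20 in WT to 0.90 in TKO, while its knock-down libraries have intervals that span most of the scale.

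Under the triple knock-down, TKO was compared with WT a second time, with libraries that share nothing with the first comparison. Of 164 events tested 0 were called by Fisher's exact test, 7 had an unadjusted p below 0.05, and 0.469% of all events were called. With no read minimum the count stayed at 0. Of the 9 exons called in untransfected cells, 7 had enough reads. For 6 of these the differences under the triple knock-down were 0.18 for Tacc2 (unadjusted p 0.0182), 0.07 for Klhdc10, -0.02 for Celf1 and Pakap, -0.10 for Adam23 (unadjusted p 0.0475) and -0.17 for Slc39a14 (unadjusted p 0.0238). Slc39a14 thus stood higher in TKO without knock-down and, untested beyond that p, at 0.98 in the WT and 0.81 in the TKO triple knock-down. Across the 159 events tested in both settings the Pearson correlation of the differences was -0.02. The triple knock-down libraries held fewer distinguishing reads per event than WT and TKO, medians of 38.5 and 45 beside 149.5 and 154.

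**Figure D4:**
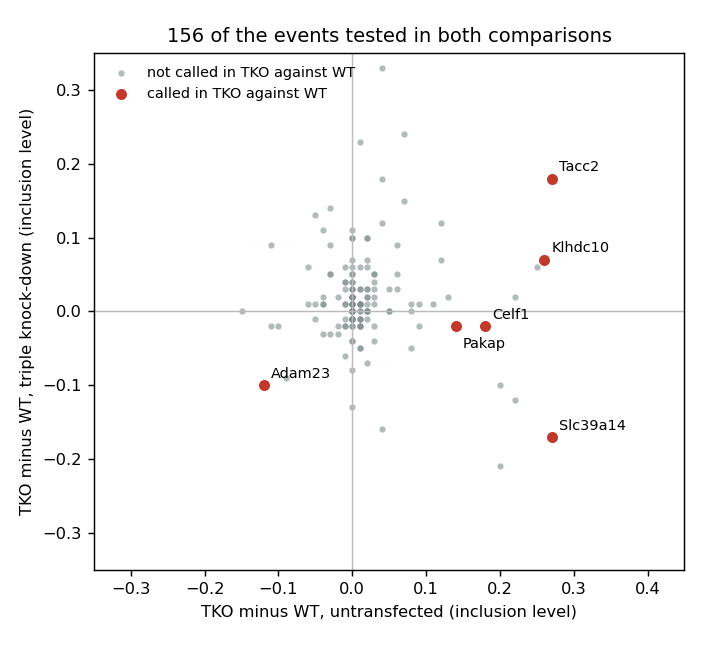
Difference in inclusion level between TKO and WT in untransfected cells (horizontal) and under the triple knock-down (vertical) for 156 of the 159 events tested in both, with 6 of the called exons in red. Tacc2 and Klhdc10 have positive differences in both, and Slc39a14 goes from 0.27 to -0.17.

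The 4 knock-downs of WT cells were set against WT, and the triple knock-down of TKO cells against TKO. The 4 former share the WT library. Against WT, 3 events were higher and 21 lower of 202 tested in the HP1alpha knock-down (11.9%; all events 11.8%), 5 and 21 of 191 for HP1beta (13.6%; all 11.8%), 3 and 14 of 176 for HP1gamma (9.66%; all 11.4%) and 6 and 19 of 165 for the triple knock-down (15.2%; all 11.2%). In TKO cells 3 were higher and 20 lower of 178 (12.9%; all 12.3%). These shares were near those of all events in 4 of the comparisons. In the triple knock-down of WT cells the share was above those of the other events, of which 9.31% with 1 long intron and 11.0% with none were called, and this turned when the shift common to exons of similar length was taken out (7.27% beside 7.88% of all events). With a minimum of 16000 nucleotides for both introns, 13 of 54 tested events (24.1%) were called there, beside 11.2% of all events. In the other 4 knock-down comparisons between 17.1% and 17.5% were called, beside 11.4% to 12.3% of all events. In TKO against WT the same minimum left 1 of 80 (1.25%), beside 4.57% of all events. Whether these shares differ was not tested, and 4 of the 13 calls were events of 1 gene, which share reads. The allowance for exons of similar length was not combined with this minimum.

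Lower levels were the rule over all events too. Called higher and lower were 1.64% and 10.2% of all events for HP1alpha, 1.92% and 9.91% for HP1beta, 1.6% and 9.84% for HP1gamma, 1.83% and 9.37% for the triple knock-down and 1.31% and 10.9% in TKO cells. The odds of inclusion against skipping moved down as a whole. Over events with enough reads of both kinds the median log2 odds ratio was between -0.86 and -0.57 in the 5 knock-down comparisons, and over the events between long introns between -0.92 and -0.36. When each event was tested against the median of exons of similar length instead, 5 were higher and 13 lower for HP1alpha, 4 and 11 for HP1beta, 3 and 7 for HP1gamma, 4 and 8 for the triple knock-down, and 3 and 9 in TKO cells. These were 8.91%, 7.85%, 5.68%, 7.27% and 6.74% of the events tested, beside 8.99%, 8.6%, 8.61%, 7.88% and 8.4% of all events in the same 5 comparisons. Of the calls without that allowance, 15 of 24, 15 of 26, 10 of 17, 12 of 25 and 11 of 23 were called in both ways.

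In at least 1 of the 5 comparisons 48 events were called, 42 lower and 6 higher, on 40 exons in 37 genes. That is 23.0% of the 209 tested at least once, beside 19.4% of all events, of which 2.95% were higher and 16.5% lower. The share was 21.1% among events listed in all 7 libraries and 20.7% among the other events of that exon length. No event between long introns was called in both directions, and 3 of all 6334 events were. The 67-nucleotide exon of Cnot2, however, was called higher in 1 event and lower in another. Of the 48 events, 17 were called in only 1 comparison and 3 in all 5.

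The largest and most even increase was in 1110059E24Rik. Its 107-nucleotide exon (chr19:21619109-21619215, upstream intron 33391 and downstream intron 20240 nucleotides) was at 0.30 in WT and 0.20 in TKO, and at 0.82, 0.85, 0.85, 0.85 and 0.83 in the HP1alpha, HP1beta, HP1gamma, triple and TKO triple knock-down. All 5 knock-down libraries lay above both untransfected ones with no overlap of intervals. Reads were 63 for inclusion and 24 for skipping in WT and 277 and 27 in the HP1alpha knock-down (adjusted p 0.000245), and the adjusted p was between 2.14e-05 and 0.000725 in the other comparisons. The share of inclusion reads already stood high in WT, so the levels differed by more than the reads.

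Slc39a14, raised in TKO, was also higher in each knock-down of WT cells, at 0.98 to 0.99 beside 0.66 in WT, with no skipping read in any of these 4 libraries (114 to 239 inclusion reads; adjusted p 2.21e-15 for HP1alpha). In the TKO triple knock-down it was at 0.81, on 44 inclusion and 3 skipping reads, and was not called against TKO. Klhdc10 was likewise higher in the 4 knock-downs of WT cells, at 0.52, 0.41, 0.59 and 0.49 beside 0.20 in WT (adjusted p 4.39e-05, 0.00989, 6.69e-06 and 0.00791). TKO and the TKO triple knock-down had 0.46 and 0.56, so WT was the low library for this exon. These 2 exons were called in TKO against WT and in the knock-downs with WT as the shared library.

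Increases that rested on less were found in 3 genes. The 66-nucleotide exon of Bcas3 (chr11:85814000-85814065) was at 0.08 in WT and 0.07 in TKO and rose to 0.20 in the HP1beta, 0.21 in the triple and 0.19 in the TKO triple knock-down, with 15 and 134 reads in WT against 25 and 58 in the triple knock-down (adjusted p 0.00225). Jarid2, a partner of the Polycomb repressive complex that methylates lysine 27 of histone H3, had a 142-nucleotide exon (chr13:44848280-44848421) listed at 0.76 in WT, at 0.75 in TKO and from 0.94 to 0.99 after knock-down. Its reads went the other way, from 1336 and 0 in WT to 609 and 6 in the triple knock-down, so that level and reads give opposite directions. The same held for a 67-nucleotide exon of Cnot2, at 0.54 in WT (118 and 0 reads) and 0.69 in the triple knock-down (36 and 4). Neither call held against the median of exons of similar length.

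Among the decreases, Dag1 was called in the 3 knock-down comparisons that could test it. The gene encodes dystroglycan, the receptor that ties the cytoskeleton to the basement membrane. Its 149-nucleotide exon (chr9:108253009-108253157), whose upstream donor is printed above, was at 0.71 in WT and 0.55 in TKO and at 0.20, 0.23, 0.25, 0.27 and 0.31 in the knock-downs in the order given. Reads were 217 for inclusion and 2 for skipping in WT and 33 and 13 in the HP1alpha knock-down (adjusted p 5.12e-08). The triple knock-down had 21 and 3 reads, and its call (adjusted p 0.0446) was lost against the median of exons of similar length (0.191) and with no read minimum (0.0515). The HP1gamma and the TKO triple knock-down had 17 and 12 distinguishing reads and were not tested.

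Cpne1, a copine that binds phospholipids with calcium, had an 81-nucleotide exon (chr2:156103349-156103429) at 0.64 in WT and 0.61 in TKO and at 0.27, 0.32, 0.23 and 0.30 in the knock-downs of WT cells (adjusted p 1.55e-07, 0.00136, 9.71e-08 and 0.00114). Its reads moved from 152 and 50 in WT to 28 and 31 in the triple knock-down, where the adjusted p against exons of similar length was 0.0593. The TKO triple knock-down had 0.35 and was not called against TKO. App, the amyloid precursor protein, had a 168-nucleotide exon (chr16:85043576-85043743) at 0.90 in WT, 0.94 in TKO and 0.66, 0.66, 0.61 and 0.54 in the knock-downs of WT cells. It rested on 1 skipping read in WT and 6 to 12 in these libraries, and none of its 4 calls held against exons of similar length (adjusted p 0.105 to 0.476).

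Further exons left near-complete inclusion. The 90-nucleotide exon of Mapkap1, the Sin1 subunit of mTOR complex 2 (chr2:34435133-34435222), was at 0.98 in WT and 0.99 in TKO and fell to 0.74 with HP1beta siRNA, 0.57 with HP1gamma siRNA, 0.75 in the triple and 0.70 in the TKO triple knock-down. Its skipping reads numbered 0 in WT and TKO and 3 to 5 in those libraries, and the calls in both triple knock-downs were lost against exons of similar length (adjusted p 0.137 and 0.0663). In Zc3h14, a zinc finger protein that binds poly(A), the 75-nucleotide exon (chr12:98774245-98774319) went from 0.98 to 0.86, 0.85 and 0.83 in the HP1beta, HP1gamma and triple knock-down and from 0.97 in TKO to 0.84 in its triple knock-down, and the call in the triple knock-down of WT cells had an adjusted p of 0.056 against exons of similar length. Osbpl1a, an oxysterol-binding protein of endosomes, had a 163-nucleotide exon on chromosome 18 at 1.00 in both untransfected libraries and from 0.81 to 0.90 in the 4 knock-downs of WT cells, where 3 to 8 skipping reads stood beside 0 in WT, and the call with HP1gamma siRNA was lost against exons of similar length (adjusted p 0.0999).

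Hsf2bp, a partner of Brca2 in meiotic recombination, had reads in number. Its 104-nucleotide exon (chr17:31987348-31987451) was at 0.89 in WT (257 and 22 reads) and 0.84 in TKO (337 and 47), and fell to 0.78, 0.75 and 0.73 in the HP1beta, HP1gamma and triple knock-down and to 0.72 in the TKO triple knock-down (647 and 203; adjusted p 1.84e-05). The calls with HP1beta siRNA and in TKO were lost against exons of similar length (adjusted p 0.223 and 0.762). Raly, an RNA-binding protein of the hnRNP family, had the deepest called exon, of 83 nucleotides (chr2:154821007-154821089). In 1 of its 2 events it went from 0.77 in WT to 0.65 and 0.62 in the HP1beta and HP1gamma knock-down, and from 0.86 in TKO to 0.68 under the triple knock-down. The reads moved less, from 2180 and 445 in WT to 2211 and 610 with HP1beta siRNA, and none of these calls held against exons of similar length (adjusted p 0.279 to 1).

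Cnot2 showed how calls sat on neighbouring exons of 1 gene. The 123-nucleotide exon whose acceptor is printed above was at 0.98 in WT and 0.95 in TKO with the farther downstream exon and fell to 0.70 in the triple knock-down (466 and 0 reads to 75 and 4; adjusted p 0.004). The next exon, of 67 nucleotides, was at 0.98 in TKO (191 and 0) and fell to 0.75 in the TKO triple knock-down (61 and 9; adjusted p 5.99e-05). This is the same exon that was called higher in the triple knock-down of WT cells, there in the event with the farther upstream exon. Chchd6, a protein of the mitochondrial contact site complex, had the longest introns of the called exons, 100113 and 47571 nucleotides around 84 nucleotides of exon (chr6:89467390-89467473). It was at 0.98 in WT, 0.99 in TKO and 0.90 to 0.96 in 4 knock-down libraries and fell to 0.73 in the triple knock-down of WT cells, on 34 inclusion and 4 skipping reads (adjusted p 0.00791).

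**Figure D5:**
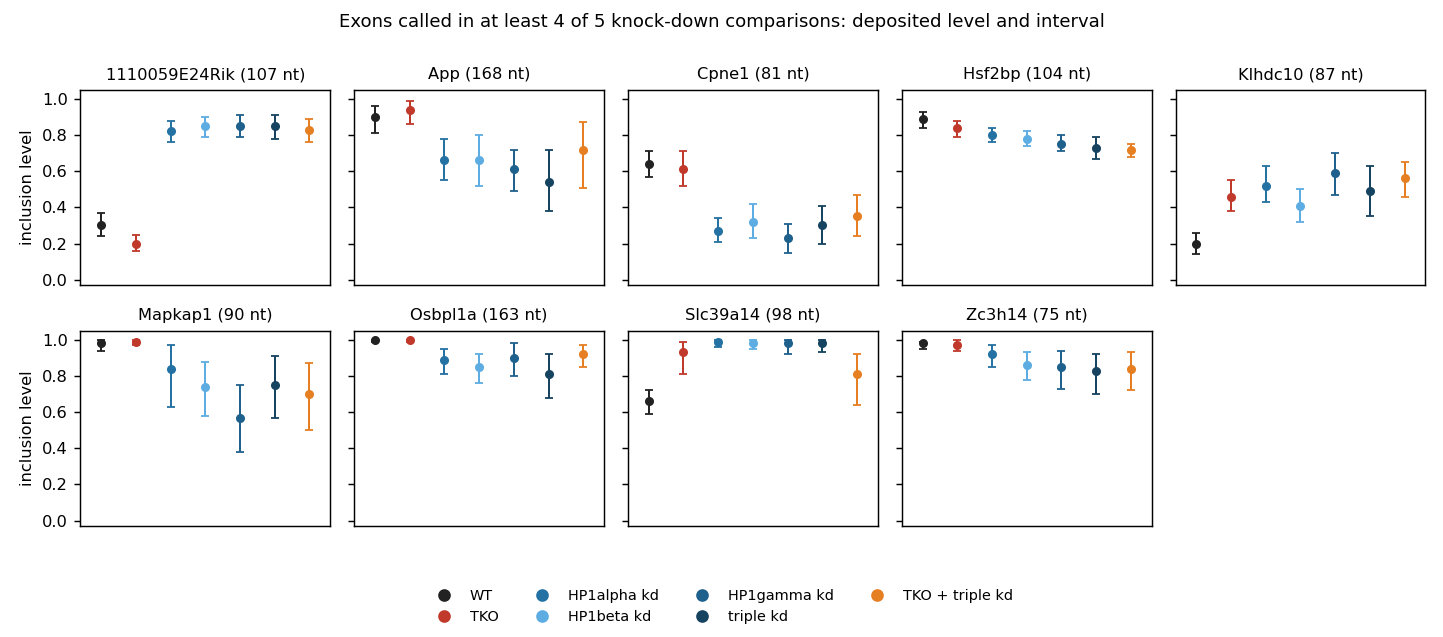
Deposited inclusion level with its deposited interval in the 7 libraries for 9 of the 13 events called in at least 4 of 5 knock-down comparisons. In 1110059E24Rik all 5 knock-down libraries lie at 0.82 to 0.85 above WT and TKO.

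The triple knock-down in WT and that in TKO share no library, though both set a HiSeq library against a Genome Analyzer library. Of 159 events tested in both, 11 were called in both, which is 47.8% of the 23 called in WT and 50% of the 22 called in TKO. Over all 4344 events tested in both, 290 were called in both, 60.0% of those called in WT and 52.1% of those called in TKO. All 11, and all 290, had the same direction. They lay in 10 genes, among them 1110059E24Rik, Bcas3, Hsf2bp, Jarid2, Mapkap1, Pkig, Rabep1, Tacc2 and Zc3h14. Pkig, an inhibitor of protein kinase A, went from 0.96 to 0.82 in WT and from 0.99 to 0.85 in TKO cells. Rabep1, an effector of Rab5 on early endosomes, went from 0.97 to 0.85 and from 1.00 to 0.89. Tacc2 went from 0.69 to 0.37 and from 0.96 to 0.55. Against exons of similar length the calls in WT cells were lost for Pkig (adjusted p 0.273), Rabep1 (0.173) and Tacc2 (0.811), and in TKO cells for Tacc2 (0.189). Across the 159 events the Pearson correlation of the differences was 0.71, as a description of events that share the platform contrast.

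The 4 knock-downs of WT cells were also compared with each other, within 1 platform, in 6 pairs. Of 1073 tests 0 were called by Fisher's exact test and 19 had an unadjusted p below 0.05. Over all events 4 of 30363 tests were called (0.0132%). The median over events of the range across these 4 libraries was 0.07, and the median distance of their mean level from WT was 0.084. For single exons the spread can be read from the values above: 0.82 to 0.85 for 1110059E24Rik, 0.41 to 0.59 for Klhdc10, 0.23 to 0.32 for Cpne1 and 0.57 to 0.84 for Mapkap1. At these depths no difference between siRNA targets was detectable for any of the tested events.

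Zelen's exact test, which compares odds ratios, asked whether the change under the triple knock-down depended on the cell line, with the siRNA dose differing between the lines as given above. Of 159 events tested, 3 had an adjusted p of at most 0.05 (1.89%; all events 2.69%), each with the more negative change in TKO, a direction found in 1.89% of all events beside 0.806% in the other. Celf1 went from 0.30 to 0.26 in WT cells and from 0.48 to 0.24 in TKO cells (adjusted p 5.76e-05). The same exon has a second event with a nearer upstream exon, which went from 0.36 to 0.39 in WT and from 0.43 to 0.63 in TKO cells on 1 to 12 skipping reads in the libraries other than TKO, which had 0, and was not called. Slc39a14 went from 0.66 to 0.98 in WT and from 0.93 to 0.81 in TKO cells (adjusted p 0.00226), and Woolf's test did not call it (0.0743). Raly went from 0.77 to 0.67 in WT and from 0.86 to 0.68 in TKO cells (adjusted p 0.00552). The other event of the same Raly exon went from 0.91 to 0.78 in WT and from 0.93 to 0.84 in TKO cells. Its log2 odds ratios differed by 0.01 between the lines, on 41 to 64 skipping reads per library, and it was not called.

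Gene lists were small among these exons. Of 69 splicing regulators and spliceosome genes, Celf1, Esrp1 and Mbnl2 had 4 events. In TKO against WT 1 of 4 rose (Celf1), beside 8 of 134 events of the list that rose and 3 that fell. In the 4 knock-downs of WT cells none of the 4 was called, and in TKO cells Celf1 fell, from 0.48 to 0.24, a call lost against exons of similar length (adjusted p 0.686). Of 112 genes of chromatin and DNA methylation, 15 events were found, in Atrx, Jarid2, Kdm4c, Rnf2 and Tbl1xr1 among others. In TKO 2 of 15 rose and 1 fell, beside 7 of 169 events of the list that rose and 4 that fell. In the triple knock-down of WT cells 1 of 10 tested rose and 4 fell, beside 6 and 14 of 123 events of the list. The 4 falls were all events of 1 gene. The rise was the 142-nucleotide exon of Jarid2, whose reads went the other way. Kdm4c, a demethylase of lysine 9 of histone H3, was called in TKO cells, where its 161-nucleotide exon went from 0.99 to 0.84 on 3 skipping reads (adjusted p 0.0296, and 0.143 against exons of similar length).

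Of 90 kinases, phosphatases and signalling genes, 6 had 10 events, and calls fell in Mapkap1 and in Ppp6r3, a regulatory subunit of protein phosphatase 6. The 148-nucleotide exon of Ppp6r3 (chr19:3544108-3544255) went from 0.66 in WT to 0.55, 0.54 and 0.53 in the HP1alpha, HP1beta and triple knock-down, with reads from 409 and 15 to 355 and 93, 225 and 64, and 138 and 39 (adjusted p 4.4e-14, 4.26e-13 and 3.96e-10). The reads differed clearly while the deposited intervals overlapped. Of 70 genes of membrane traffic and ubiquitin, 6 had 11 events, and calls fell in Osbpl1a alone. The cytoskeleton, adhesion and polarity list had 4 events in Dlg1, Dnm2, Mapre2 and Numb, and none was called in any comparison. No event lay in a gene of the ES cell or differentiated cell lists.

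The widest ranges of level were mostly in exons that could not be tested in the knock-downs. Ube2k, a ubiquitin-conjugating enzyme, had a 94-nucleotide exon at 1.00 in WT (1101 and 0 reads) and in TKO (825 and 0), and listed from 0.03 to 0.19 after knock-down on 1 to 10 inclusion reads and 0 for skipping. Its level in those libraries is low although no read showed skipping. Ak4, a mitochondrial adenylate kinase, had a 120-nucleotide exon (chr4:101447160-101447279) at 0.86 in WT (435 and 20) and 0.95 in TKO (1332 and 29), and at 0.01 in all 5 knock-downs, on 0 or 1 inclusion and 6 to 15 skipping reads. Here level and reads go together, but the reads are fewer than the minimum. Invs, a ciliary protein, went from 1.00 on 5573 inclusion reads in WT to between 0.21 and 0.66 on 2 to 5 distinguishing reads.

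The other genes in that group were likewise thin in the knock-downs. Zfp346, a zinc finger protein that binds double-stranded RNA, had a 186-nucleotide exon at 0.96 (WT) and 0.97 (TKO), with knock-down levels from 0.12 to 0.43 on at most 1 skipping read. The 113-nucleotide exon of Atrx was at 0.96 and 0.92 and at 0.24 to 0.40, on 302 inclusion reads in both untransfected libraries but 3 to 23 after knock-down. Mboat2, a membrane-bound acyltransferase, went from 0.88 and 0.95 to between 0.16 and 0.62 on at most 2 distinguishing reads, and Gm38424 from 0.10 in both to between 0.55 and 0.86 on 2 to 14. A second event of 1110059E24Rik, with the nearer upstream exon, was at 0.40 and 0.17 and at 0.86 to 0.96. Across all events between long introns, 118 of 270 had a range of at least 0.2 over the 7 libraries (43.7%), beside 40.2% of events with 1 long intron and 32.7% of events with none, whose median distinguishing reads in WT were 155.5 and 220.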

How the data were processed

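Per the labels, each of the 7 RNA groups (2 replicates) has 1 splicing summary, into which the authors pooled both replicates. The 2 bisulfite and 6 MNase samples were not analysed here. TopHat2, Bowtie2 and mm10 are named in the submitters' processing notes, without versions. The files are skipped-exon summaries of MISO, per the file headers, and the deposited inclusion level is a fraction from 0 to 1 with an interval of unstated level. The headers also give the reads that fit inclusion alone or skipping alone. Each deposited event has at least 100 reads, so thinner events are missing from a library.

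Events were joined by coordinates. Gene symbols came from RefSeq (GRCm38.p6): 260 of 270 events lay in 1 gene, 8 were named by the skipped exon and 2 lay in no gene. Reads at near-identical copies or antisense genes cannot be told apart. Reads were compared between 2 libraries with two-sided Fisher's exact tests (Python 3.11.15, scipy 1.17.1), at 20 or more distinguishing reads per library, with Benjamini-Hochberg adjustment over all events tested. A call needed an adjusted p of at most 0.05 and a level difference of at least 0.1. The cell line dependence used Zelen's exact test. Log2 odds ratios carry a pseudocount of 0.5. The tests were checked on simulated reads. The p-values cover counting error between pooled libraries only, and reads without molecular identifiers are not independent molecules.

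Alternatives were no read minimum, a difference of 0.2, a null odds ratio set by eighths of exon length, intervals apart, reads moving the same way by 0.05, an intron minimum of 16000, 1 event per exon and Woolf's test. Named per comparison were the called exons with the largest changes and with intervals apart, 1 per gene (up to 10 each way in TKO and the triple knock-down against WT, up to 4 elsewhere), then the 8 lowest and 8 most variable, the 5 with the longest shorter intron, 3 on either side of the intron minimum, and called exons of the lists; Adam23, Cnot2 of 67 nucleotides, Rabep1, Pkig and Zc3h14 were named after their values were seen. Members, lists and tests were chosen with earlier results of these data known. The events of 1 gene are counted in the totals but not reported here.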

Additional observations from a re-analysis of the deposited data

Results flagged for a closer look

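The change under the triple knock-down differed between TKO and WT cells in 3 exons by Zelen's exact test, adjusted over 4344 events. The difference of the log2 odds ratios (TKO minus WT) was -1.90 for Celf1, -9.81 for Slc39a14 and -0.69 for Raly. The other event of the same exon had -3.66 for Celf1 and 0.01 for Raly, and neither was called. In that Celf1 event TKO had 197 inclusion reads and no skipping read, so the size of -3.66 rests on the pseudocount. Its deposited levels gave the opposite sign, from 0.36 to 0.39 in WT and from 0.43 to 0.63 in TKO cells. In Slc39a14 the size of the value is set by libraries without a skipping read and by the pseudocount, and 44 inclusion and 3 skipping reads stood in the TKO triple knock-down.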

How the results depend on the processing

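No paired analysis was possible because both replicates of each group were pooled before deposit, and for the same reason no replicate could be left out. A difference of at least 0.2 left 5 called exons in TKO against WT, and 14 (HP1alpha), 17 (HP1beta), 11 (HP1gamma), 14 (triple) and 8 (triple in TKO) in the knock-downs. With an intron minimum of 16000 nucleotides, 100 events remained, with 1, 12, 11, 10, 13 and 10 calls in the same order and 1 in the test of cell line dependence. A null odds ratio set by exon length gave 18 calls with HP1alpha siRNA (3 of them not called before), 15 with HP1beta siRNA, 10 with HP1gamma siRNA and 12 in each triple knock-down (1 in TKO cells not called before), and reads that move the same way left 15 in TKO cells. The other counts of calls stayed within 1.5 times. The direction of a call is the sign of the level difference, or of the difference of log2 odds ratios for cell line dependence. No alternative changes these values, and only the requirement that reads move the same way sets the direction beside the reads. The reads went against the level in 1 called event with HP1beta siRNA, 2 in the triple knock-down of WT cells and 1 in that of TKO cells. The other alternatives could not test direction. Depth left 165 of 270 events that could be tested in the triple knock-down of WT cells and 164 when both triple knock-downs were compared.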
